A study of Mus musculus with 20 samples.

Results

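The heat shock chaperone genes described here are 10 genes of the cytosolic and mitochondrial protein folding machinery: Hspa8, Hspa1a, Hspa1b, Hsph1, Dnajb1, Hsp90aa1, Hsp90ab1, Hspd1, Hspe1 and Hsf1. They were taken by gene name from the 54532 genes of a spleen count table, and all 10 were found and passed the filter on low counts that left 18362 genes for testing. The study sequenced whole spleen RNA from mice whose breeding diet was free of gluten and from control mice, all aged 4 weeks. The gluten-free group held 9 libraries, 4 with plain number IDs (7 to 10) and 5 with IDs that begin with S (S1, S3, S5, S6 and S8). The control group held 11 libraries, 8 with plain IDs (1 to 8) and 3 with S IDs (S1, S2 and S6). What the letter S stands for, the strain, the sex and the make-up of the control diet are not given in the sources used here, so the diets were compared within each ID form as well as over both. The labels do not say that each library came from its own mouse, so all p-values measure the spread between libraries, which may in part be technical.

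Library totals ran from 13626021 to 24268237 counts, and counts of the 8 abundant members ran from 465 to 25102 a library, so that counting noise is small for them. Spleen genes were present: the summed level of 6 genes that mark spleen or its macrophages and vessels (Tlx1 among them) ran from 281 to 826 TMM-scaled CPM, the counts scaled to library size, over the 20 libraries. In 2 libraries pancreatic acinar genes stood out, with a sum over 12 genes of 11615 CPM in gluten-free S1 and 1041 CPM in control 4, against at most 30.3 CPM in the other 18 libraries.

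Heat shock proteins are molecular chaperones: they bind unfolded or unstable proteins and use ATP to help them fold. The HSP70 system works with J-domain partners that deliver clients and start its ATP cycle, and with exchange factors that reset it, and it passes many clients on to HSP90. HSF1 is the transcription factor that raises chaperone genes when unfolded proteins build up, by binding heat shock elements in their promoters. The spleen of young mice also makes red cells, and in human red cell precursors HSP70 is known to protect the erythroid factor GATA1.

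Promoter windows of 300 bases (250 before the start and 50 after it, RefSeq, build GRCm38.p6) were at hand for 6 members with 9 windows: Hspd1, Hspe1, Hsph1, Dnajb1, Hspa1a and Hspa1b. Hspa8, Hsp90aa1, Hsp90ab1 and Hsf1 had no entry. The windows were searched for 3-unit heat shock elements, GAANNTTCNNGAA or TTCNNGAANNTTC, which are found in 0.603% of 32851 promoters, and for 2-unit elements, GAANNTTC or TTCNNGAA, found in 15.1%; each pair covers both strands, and every 3-unit element holds 2-unit ones. Only exact matches inside the windows were counted, so elements with a mismatch or farther from the start would be missed. Parts of 3 windows are shown, since Hspe1 has exact 3-unit elements there and the inducible HSP70 genes have not. The first is a stretch of 30 bases before the start of Hspe1, chr1:55088053-55088082 on the plus strand, with overlapping 3-unit elements in capitals that start 89 and 84 bases before the start site. These bases also lie inside the span of the Hspd1 gene, chr1:55077835-55088243 on the minus strand. The others are the 120 bases before the starts of Hspa1a, chr17:34972157-34972276, and Hspa1b, chr17:34959239-34959358, both on the minus strand, with a single 2-unit element each, in capitals, 104 bases before the start.
Hspe1: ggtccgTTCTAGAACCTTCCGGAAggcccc
Hspa1a: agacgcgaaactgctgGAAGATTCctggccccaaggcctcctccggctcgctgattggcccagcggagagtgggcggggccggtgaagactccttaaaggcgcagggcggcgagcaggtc
Hspa1b: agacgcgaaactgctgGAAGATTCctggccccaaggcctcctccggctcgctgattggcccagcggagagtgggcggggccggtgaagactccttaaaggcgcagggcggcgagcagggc
The Hspa1a and Hspa1b stretches differ at 1 of 120 bases, and their whole windows at 4 of 300 bases. The Hspe1 element also lies in the window of 1 of the 2 starts listed for Hspd1, the neighbouring gene that is read in the other direction. Hsph1 had a single 3-unit element, which lay after the start in both of its windows, and Dnajb1 had none in either window.

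Levels among the members differed widely and are compared here per kilobase of gene model (CPM per kb, mean of 20 libraries). Hsp90ab1, the constitutive cytosolic HSP90, was highest with 307 CPM per kb. Hspa8, the constitutive HSC70, followed with 220 CPM per kb and Hsp90aa1, the inducible HSP90, with 191 CPM per kb. Hspd1 (HSP60) and Hspe1 (HSP10), which form the mitochondrial chaperonin, had nearly equal levels of 117 and 112 CPM per kb. Dnajb1, an HSP40 partner of HSP70, had 34.4 CPM per kb, Hsph1, an HSP110 exchange factor, 16.9 CPM per kb, and Hsf1 5.42 CPM per kb. The inducible HSP70 genes were close to the bottom of the range, with 1.62 CPM per kb for Hspa1b and 0.383 CPM per kb for Hspa1a.

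**Figure D1:**
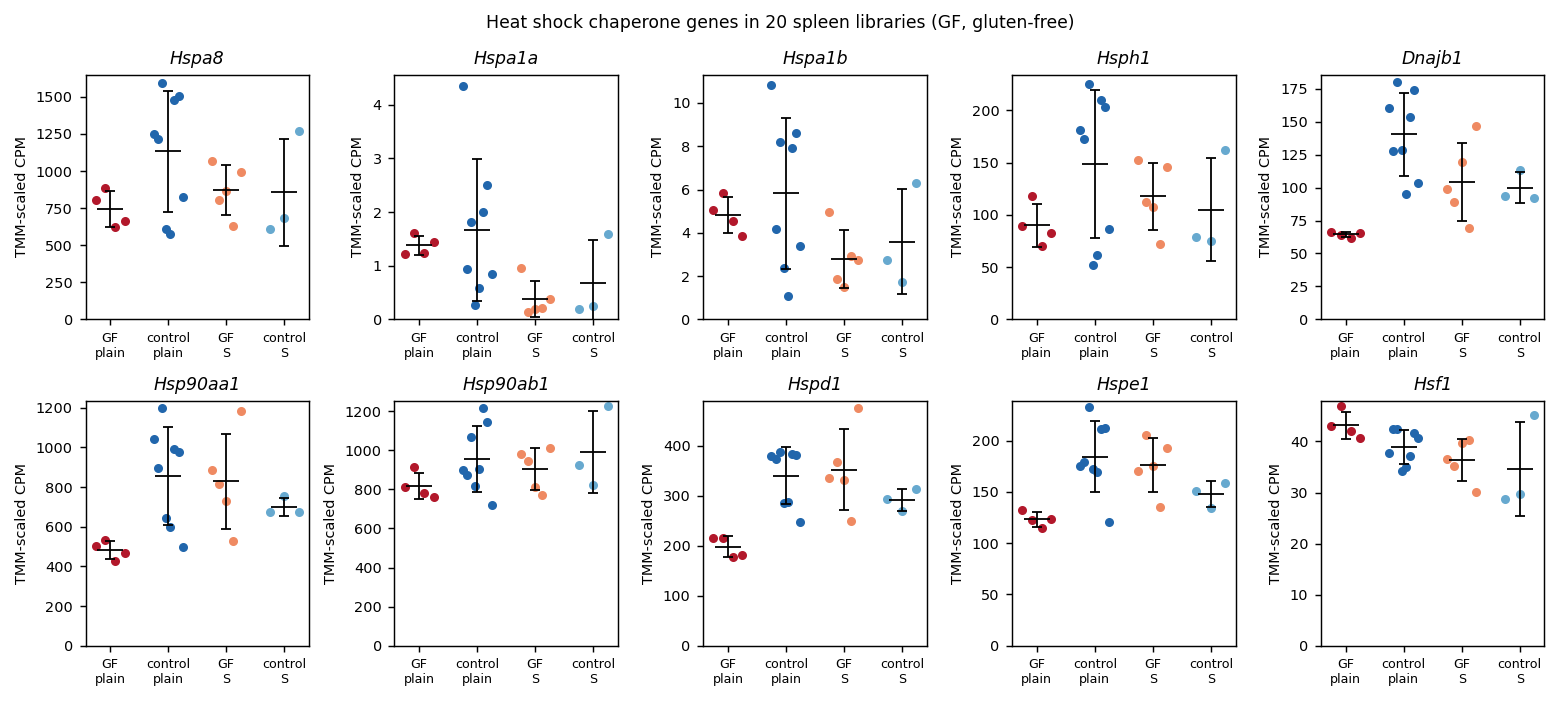
TMM-scaled CPM of each member in the 20 libraries, in gluten-free (GF) and control libraries of the plain and the S IDs. Points are libraries, the horizontal bar is the group mean and the error bar its SD. For Dnajb1 the 4 gluten-free plain libraries lie between 61.9 and 66.5 CPM, below the other 16 libraries.

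Within the plain IDs, spleens of the gluten-free group had lower levels of an HSP40, of the inducible HSP90 and of both subunits of the mitochondrial chaperonin. Dnajb1, Hsp90aa1, Hspd1 and Hspe1 fell, none of the 10 members rose, and the other 6 did not pass the threshold. The 4 members compare with 22.1% of all tested genes that fell and 17.5% that rose in this comparison (39.6% called in either direction), at an adjusted p under 0.05 in edgeR's quasi-likelihood test with Benjamini-Hochberg adjustment over all tested genes. The median log2 fold change, gluten-free over control, was -0.59 over the 10 members and 0.03 over all tested genes. With library totals in place of TMM scaling, 6522 genes were called higher and 2043 lower, against 3216 and 4050 with TMM, and the median of all genes moved to 0.31; the same 4 members were then called lower, and Hsf1 was called higher.

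Dnajb1 (ENSMUSG00000005483, chr8:83608193-83612653) had 64.3, 61.9, 65.6 and 66.5 CPM in gluten-free 7, 8, 9 and 10. In the 8 plain control libraries it had a lowest value of 95.1, a median of 141 and a highest of 180 CPM. The groups did not overlap, which held for 14.2% of all tested genes in this direction and for 6.83% in the other, and the gluten-free libraries lay within 1.08-fold of one another. The log2 fold change was -1.12 ± 0.15 (SE; edgeR adjusted p = 5.1e-05), from means of 64.6 ± 2.01 CPM in gluten-free and 140 ± 31.5 CPM in control libraries (SD, n = 4 and n = 8).

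Hspd1 (ENSMUSG00000025980, chr1:55077835-55088243) had 216, 179, 181 and 216 CPM in gluten-free 7 to 10. Its plain control values had a lowest of 248, a median of 376 and a highest of 388 CPM. These groups did not overlap either, and the log2 fold change was -0.78 ± 0.13 (SE; edgeR adjusted p = 0.000238). Hspe1 (ENSMUSG00000073676, chr1:55088132-55091307), its partner, had 123, 115, 123 and 133 CPM in gluten-free 7 to 10, and 120, 177 and 233 CPM as the lowest, median and highest plain control values. Here control 8 alone reached into the gluten-free range, and the log2 fold change was -0.58 ± 0.13 (SE; edgeR adjusted p = 0.00295). The gene models of Hspd1 and Hspe1 overlap by 112 bases on opposite strands, and the strand setting of the counting is not given, so reads from the overlap cannot be assigned with certainty.

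Hsp90aa1 (ENSMUSG00000021270, chr12:110690605-110702728) had 533, 425, 466 and 504 CPM in gluten-free 7 to 10. The plain control libraries had a lowest value of 497, a median of 935 and a highest of 1196 CPM. Only control 8 lay within the gluten-free range, and the log2 fold change was -0.83 ± 0.20 (SE; edgeR adjusted p = 0.00378). All 4 calls stayed past the threshold when each of the 12 plain libraries was left out in turn. Its constitutive twin Hsp90ab1 (ENSMUSG00000023944, chr17:45567775-45573271) had 763 to 914 CPM in gluten-free and 720 to 1217 CPM in control libraries, and its log2 fold change was -0.23 ± 0.13 (SE; edgeR adjusted p = 0.181).

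The core HSP70 Hspa8 (ENSMUSG00000015656, chr9:40800984-40810087) and the exchange factor Hsph1 (ENSMUSG00000029657, chr5:149614287-149636376) were spread 2.76-fold and 4.33-fold, highest over lowest CPM, within the plain control group. Hspa8 had 883, 625, 664 and 807 CPM in gluten-free 7 to 10, and a lowest of 578, a median of 1235 and a highest of 1595 CPM in plain controls. Hsph1 had 118, 70.0, 82.7 and 89.1 CPM in the same gluten-free libraries, and 52.1, 177 and 226 CPM as the lowest, median and highest control values. For both genes controls 4, 5 and 8 lay at or below the gluten-free maximum, and controls 1, 2, 3, 6 and 7 above it. The log2 fold changes were -0.60 ± 0.25 for Hspa8 (SE; edgeR adjusted p = 0.0663) and -0.73 ± 0.34 for Hsph1 (SE; edgeR adjusted p = 0.102). Hspa8 passed the threshold without control 4 (adjusted p = 0.0255), control 5 (0.0205) or control 8 (0.0384), and Hsph1 without control 4 (0.0299) or control 5 (0.0434), in the same edgeR test. Each of these controls lay at or below the gluten-free maximum. When each of the 12 plain libraries was left out in turn, 9 of 12 fits left Hspa8 uncalled and 10 of 12 left Hsph1 uncalled.

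The inducible HSP70 genes and their regulator gave no call in the plain IDs. Hspa1b (ENSMUSG00000090877, chr17:34956436-34959238) had 3.83 to 5.82 CPM in gluten-free and 1.10 to 10.8 CPM in control libraries. Hspa1a (ENSMUSG00000091971, chr17:34969190-34972156) had 1.22 to 1.60 CPM in gluten-free and 0.272 to 4.34 CPM in control libraries, on 23 to 38 and 4 to 87 counts a library. Both highest values were those of control 1, and how reads that match both of these near-identical genes were counted is not given. Hsf1 (ENSMUSG00000022556, chr15:76477422-76501913) had 40.7 to 46.9 CPM in gluten-free and 34.3 to 42.4 CPM in control libraries, and its log2 fold change was 0.15 ± 0.08 (SE; edgeR adjusted p = 0.155).

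**Figure D2:**
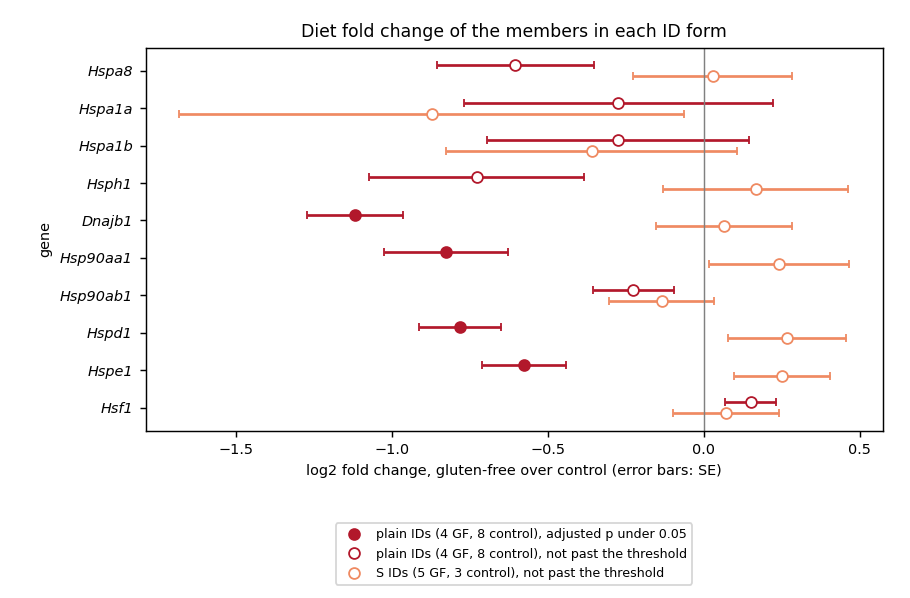
Log2 fold change of each member, gluten-free over control, in the plain IDs (dark red) and the S IDs (orange), with standard errors; filled points passed an adjusted p of 0.05 in edgeR's quasi-likelihood test. In the plain IDs the filled points run from -1.12 (Dnajb1) to -0.58 (Hspe1), and no S ID point is filled.

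Within the S IDs none of the 10 members passed the threshold, and neither did any other gene (0.0% of 18362 genes called by edgeR, 986 at an unadjusted p under 0.05; DESeq2 called 4 genes and limma-voom 0). Dnajb1 had 98.6, 88.8, 119, 69.3 and 147 CPM in gluten-free S1, S3, S5, S6 and S8, against 94.0, 113 and 92.3 CPM in control S1, S2 and S6. Hspd1 had 335, 368, 332, 250 and 476 CPM in the same gluten-free libraries, against 293, 270 and 314 CPM in the controls. The control values lay inside the gluten-free range for both genes. Hsp90aa1 had 886, 814, 731, 527 and 1183 CPM in gluten-free and 675, 753 and 673 CPM in control libraries, and Hspe1 had 171, 205, 176, 136 and 192 CPM against 151, 134 and 158 CPM. Gluten-free S6 was lowest and gluten-free S8 highest among the gluten-free S libraries for Dnajb1, Hspd1 and Hsp90aa1. Over the 10 members the log2 fold changes ran from -0.87 (Hspa1a) to 0.27 (Hspd1), with a median of 0.07 beside 0.02 for all genes, and the groups overlapped for all 10 (2.05% of all tested genes lay lower and 1.65% higher in gluten-free libraries with no overlap).

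The diet fold change itself differed between the ID forms for the 4 members that fell in the plain IDs. In the fit over all 20 libraries with a diet by ID form term, the fold change in the S IDs was above that in the plain IDs by 1.18 ± 0.27 on the log2 scale for Dnajb1 (SE; edgeR adjusted p = 0.00527) and by 1.05 ± 0.23 for Hspd1 (adjusted p = 0.00407). It was above by 1.07 ± 0.32 for Hsp90aa1 (adjusted p = 0.0206) and by 0.83 ± 0.21 for Hspe1 (adjusted p = 0.00802). Among all tested genes 24.8% were called, 15.4% with such a positive difference and 9.37% with a negative one. The Hsp90aa1 difference was not past the threshold without control S1 (adjusted p = 0.0516) or with library totals (adjusted p = 0.0624). For Hspa8 the difference was 0.63 ± 0.40 (adjusted p = 0.261) and for Hsph1 0.89 ± 0.53 (adjusted p = 0.227).

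Over both ID forms, with the form as a term, none of the 10 members was called (0.0% of all genes with edgeR's test, and 4559 of them under 0.05 before adjustment; DESeq2 called 1594 genes and limma-voom 1). Dnajb1 had the smallest p of the members, with a log2 fold change of -0.63 ± 0.19 (SE; edgeR adjusted p = 0.0979). It was called under 4 of 30 alternatives, and the other 26 left it uncalled. The 4 were DESeq2 (adjusted p = 0.0239), limma-voom with quality weights (adjusted p = 7.24e-06), and edgeR without control S6 (adjusted p = 0.0129) or without gluten-free S8 (adjusted p = 0.0148).

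The level of each of these genes can be set side by side over the 4 groups. Dnajb1 averaged 64.6 ± 2.01 CPM in gluten-free and 140 ± 31.5 CPM in control libraries of the plain IDs (SD, n = 4 and n = 8), and 104 ± 29.6 CPM in gluten-free and 99.9 ± 11.7 CPM in control libraries of the S IDs (SD, n = 5 and n = 3). The plain control mean was highest and the gluten-free plain mean lowest. The upper 3 groups overlapped, and the gluten-free plain group lay below the lowest of the other 16 libraries, 69.3 CPM in gluten-free S6. Hspd1 averaged 198 ± 21.2 CPM in gluten-free and 341 ± 57.1 CPM in control libraries of the plain IDs, and 352 ± 81.4 CPM in gluten-free and 293 ± 22.1 CPM in control libraries of the S IDs (SD, same n). The gluten-free S mean was highest, followed by plain control and control S with overlapping values, and the highest gluten-free plain value of 216 CPM was below the lowest of the other 16 libraries, 248 CPM in control 8. Hsp90aa1 and Hspe1 had the gluten-free plain group lowest as well, with 482 ± 47.1 and 123 ± 7.19 CPM, and 2 and 1 of the other 16 libraries reached into its range. Hsf1 had its highest group mean where these 4 genes had their lowest, 43.2 ± 2.65 CPM in gluten-free plain libraries, and its lowest in control S libraries with 34.6 ± 9.20 CPM.

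Hspa1a was the member called between the ID forms, in a fit with diet as a term. It had 0.959, 0.130, 0.185, 0.217 and 0.387 CPM in gluten-free S1, S3, S5, S6 and S8 and 0.186, 0.254 and 1.59 CPM in control S1, S2 and S6. The plain libraries ran from 1.22 to 1.60 CPM in the gluten-free and from 0.272 to 4.34 CPM in the control group. The log2 fold change, S over plain, was -1.59 ± 0.49 (SE; edgeR adjusted p = 0.0449), where 9.02% of all genes were called, 3.84% lower and 5.18% higher. This call rests on 3 to 87 counts a library, and it was lost when any of 14 single libraries was left out (adjusted p up to 0.0923). Its neighbour Hspa1b had -0.74 ± 0.35 (adjusted p = 0.169).

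A ratio of counts within a library does not depend on library scaling. Hsp90aa1 over Hsp90ab1, the inducible over the constitutive HSP90, was 0.583, 0.545, 0.610 and 0.622 in gluten-free 7, 8, 9 and 10. In plain control libraries this ratio ran from 0.661 to 1.16. The groups did not overlap, and the mean log2 ratio was lower by 0.57 in the gluten-free group (difference -0.57, means -0.76 ± 0.08 and -0.20 ± 0.31, SD, n = 4 and n = 8; exact permutation test over 495 splits, two-sided, p = 0.00404, the smallest it can give, adjusted p = 0.0162 over 4 ratio tests). In the S IDs the ratio was 0.902, 0.864, 0.902, 0.686 and 1.17 in gluten-free S1, S3, S5, S6 and S8, against 0.729, 0.917 and 0.549 in control S1, S2 and S6. These overlapped (difference 0.32, exact permutation test over 56 splits, two-sided, adjusted p = 0.393). The ratio of Hspa1a plus Hspa1b to Hspa8 did not pass the threshold in either form: it was 0.00779 to 0.00925 in gluten-free and 0.00291 to 0.0121 in control libraries of the plain IDs (difference 0.56, exact permutation test, adjusted p = 0.210), and 0.00193 to 0.00554 against 0.00288 to 0.00622 in the S IDs (difference -0.40, adjusted p = 0.393). Without control 1, which had the ratio of 0.0121, the plain difference was 0.72 (exact permutation test, adjusted p = 0.0121).

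**Figure D3:**
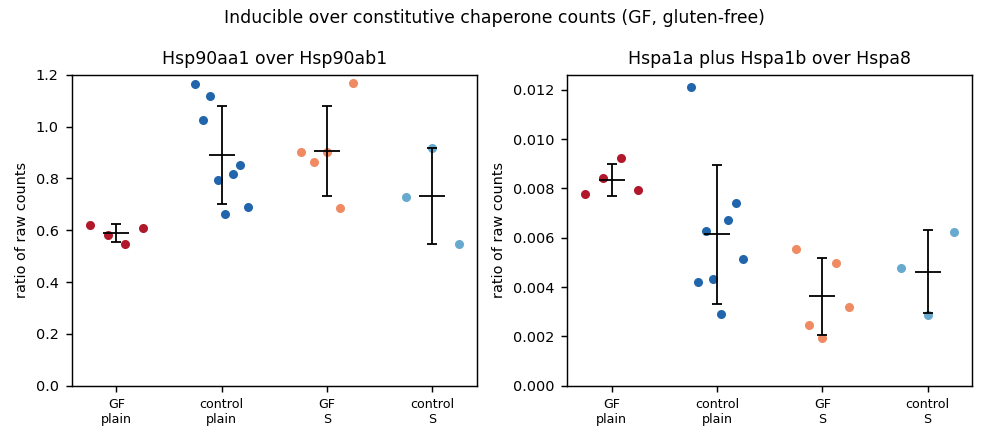
Ratio of raw counts of Hsp90aa1 to Hsp90ab1 (left) and of Hspa1a plus Hspa1b to Hspa8 (right) in each library, in gluten-free (GF) and control libraries of each ID form; the horizontal bar is the group mean and the error bar its SD. The left ratio is at most 0.622 in gluten-free plain libraries and at least 0.661 in plain controls.

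Across the 20 libraries the members did not vary as 1 block. Correlations are given as a description, since the libraries share diet and ID form. Hspa8 and Hsph1 followed each other most closely (Pearson r = 0.97, Spearman rho = 0.96, n = 20; r = 0.97 without the 2 libraries farthest from the Hspa8 median), and r was 0.98 for deviations from the 4 group means. Hsp90aa1 and Hspd1 had r = 0.94 (rho = 0.96; 0.94 without 2 libraries) and Hspd1 and Hspe1 r = 0.90 (rho = 0.93; 0.87 without 2 libraries). Hspa1a and Hspa1b had r = 0.87 with each other, and lower values with the mitochondrial pair, of 0.00 and 0.13 for Hspd1 and 0.06 and 0.17 for Hspe1. For deviations from the group means these values were higher, 0.49 and 0.50 for Hspd1 and 0.30 and 0.36 for Hspe1. Hsf1 had r between -0.32 (Hspd1) and 0.59 (Hspa1a) with the other members. For deviations its r ran from -0.15 (Dnajb1) to 0.52 (Hspa8), with -0.03 for Hspd1. Within the 8 plain controls r was positive for every pair of members, and for Hsf1 it ran from 0.17 (Hsp90ab1) to 0.70 (Hspa8).

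**Figure D4:**
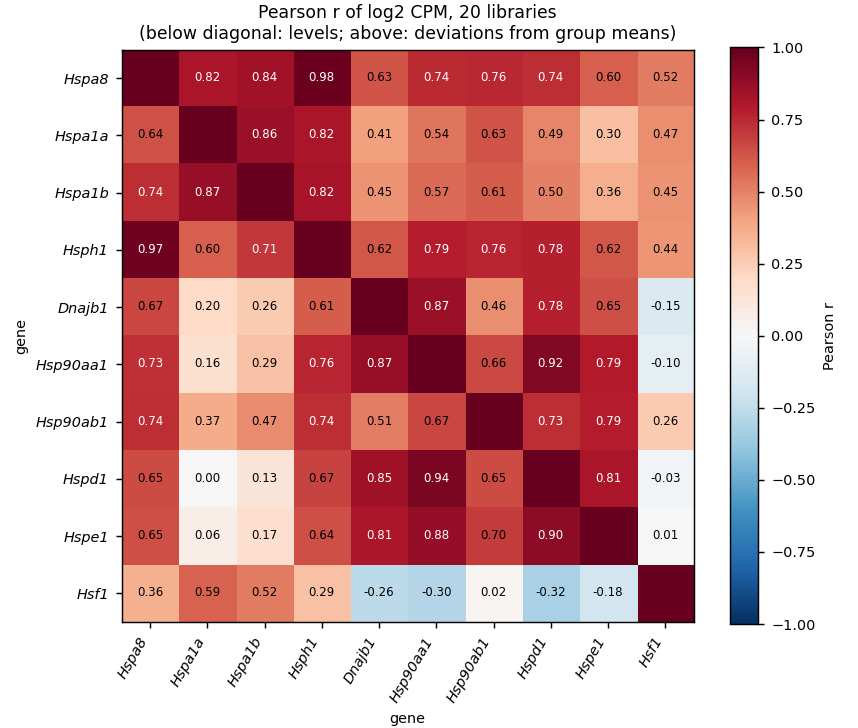
Pearson r of log2 CPM between members over 20 libraries; below the diagonal for the levels, above it for deviations from the means of the 4 diet by ID form groups. The highest value is that of Hspa8 and Hsph1, 0.97 below and 0.98 above the diagonal.

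The genes outside the 10 whose levels were most like each member were sought among the 9888 genes that averaged 10 CPM or more. Both Hspa8 and Hsph1 had Dnaja1, an HSP40 partner of HSC70, in first place (r = 0.98 and 0.95, n = 20) and Chordc1, an HSP90 co-chaperone, in second (r = 0.94 and 0.93). Dnajb1 had Bag2, an HSP70 cofactor, in first place (r = 0.97), followed by Fam234b and Med13l (0.96 each). Hsp90aa1 and Hspd1 both had Cct6a, a subunit of the cytosolic TRiC chaperonin, in first place (r = 0.95 and 0.98). Hsp90aa1 then had Tcp1 (0.95), and Hspd1 had Cct2 (0.97), which encode other TRiC subunits. Hspe1 had Mrpl42, a mitochondrial ribosomal protein gene (0.98), and Hsf1 had Ccdc134 (0.92) and the interferon regulator gene Irf3 (0.91).

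Other chaperone families were looked at through fixed lists, adjusted over all tested genes. Of all tested genes 22.1% fell and 17.5% rose in the plain IDs. In the plain IDs the mitochondrial list, to which HSP60 and HSP10 belong by location, was lower in 13 of 14 genes and higher in 0 (median log2 fold change -0.55). The inner membrane protease gene Afg3l2 had 67.9 CPM in gluten-free and 117 CPM in control libraries on average, and its log2 fold change was -0.79 ± 0.10 (SE; edgeR adjusted p = 3.17e-05). Htra2, a protease of the intermembrane space, had -0.67 ± 0.09 and Dnaja3, the mitochondrial HSP40, -0.54 ± 0.08. Of the TRiC and prefoldin list, which folds actin and tubulin, 11 of 14 fell and 0 rose (median -0.47), with Pfdn6 at -0.75 ± 0.12, Pfdn1 at -0.65 ± 0.11 and Tcp1 at -0.64 ± 0.11 (SE).

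Among 30 further cytosolic chaperones and co-chaperones 16 fell and 2 rose in the plain IDs (median -0.35). The shares of all tested genes, for this and the next lists, were 22.1% that fell and 17.5% that rose. Hspa14, an HSP70 of the ribosome-associated complex, had -0.52 ± 0.08, Bag2 -1.13 ± 0.17 and the HSP40 gene Dnaja4 -1.15 ± 0.19 (SE). Dnaja1, the gene most like Hspa8, had -0.42 ± 0.21 and was not called (edgeR adjusted p = 0.125). Of 15 endoplasmic reticulum genes 1 rose (Pdia4, a disulfide isomerase, 0.45 ± 0.14) and 1 fell (Canx, calnexin, -0.31 ± 0.09; SE), with a median of 0.17. Of 9 tested small heat shock protein genes Hspb1 (1.01 ± 0.24) and Hspb8 (0.58 ± 0.19) rose and Hspb6 fell (-0.89 ± 0.18; SE). Hsf4 was the single called gene of 4 tested heat shock factors and HSF1 partners (0.80 ± 0.27, SE, at 2.22 CPM in gluten-free and 1.28 CPM in control libraries on average). Of 18 immediate early genes, which respond within minutes to many stimuli, 9 rose and 2 fell, among them Klf2 (0.48 ± 0.08), Zfp36 (0.55 ± 0.10) and Btg2 (-0.65 ± 0.11; SE).

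In the S IDs 0 genes of these lists passed the threshold in edgeR, where 0 to 1 gene a list had an unadjusted p under 0.05, and the medians were 0.11 for the mitochondrial, 0.17 for the TRiC and prefoldin, 0.05 for the cytosolic and -0.02 for the endoplasmic reticulum list. The difference between the forms was positive and past the threshold for 12 of 14 mitochondrial, 11 of 14 TRiC and prefoldin and 12 of 30 cytosolic genes, and for 0 of 15 endoplasmic reticulum genes, against 15.4% of all genes. It was negative and past the threshold for 0, 0, 1 and 1 gene of these lists and for 4 of 9 small heat shock protein genes, Hspb1 among them, against 9.37% of all genes.

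**Figure D5:**
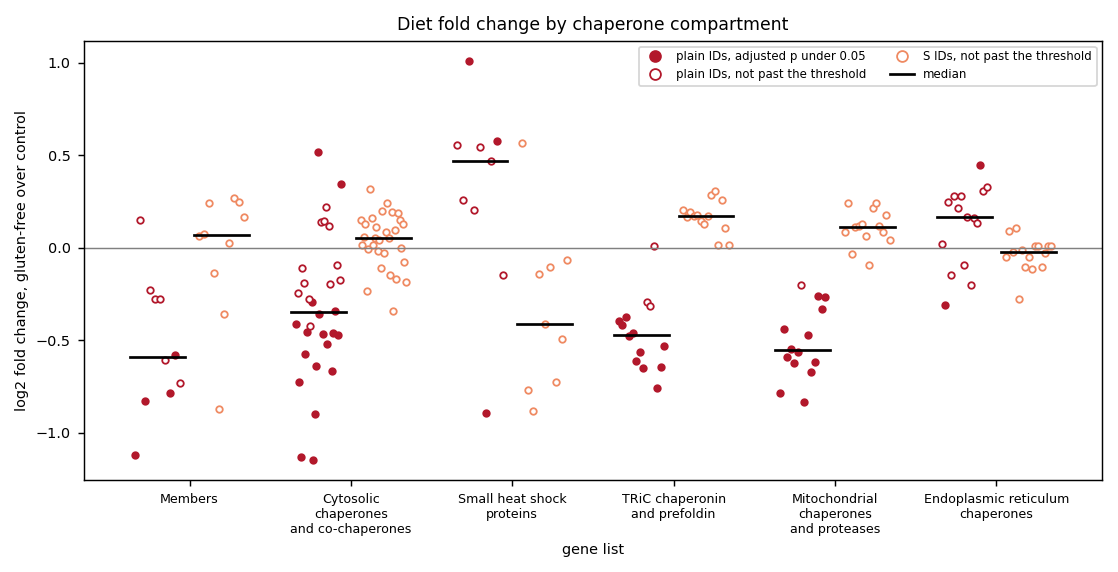
Log2 fold change, gluten-free over control, of every tested gene of the members and of 5 chaperone lists, in the plain (dark red) and the S IDs (orange); filled points passed an adjusted p of 0.05 in edgeR and black lines are medians. In the plain IDs the mitochondrial and TRiC medians are -0.55 and -0.47 and the endoplasmic reticulum median is 0.17.

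Genes of red cell precursors and of dividing cells moved with the chaperone genes that fell. In the plain IDs 20 of 20 tested erythroid genes were lower (median log2 fold change -1.35), and their summed level was 59203 to 106167 CPM in gluten-free and 88535 to 195735 CPM in control libraries. All 20 cell cycle genes were lower too (median -1.14), with a sum of 3333 to 4464 CPM in gluten-free and 5998 to 10906 CPM in control libraries, groups that did not overlap. All 13 neutrophil and 11 T cell genes were higher and 1 of 9 B cell genes was higher. Of all tested genes 22.1% were called lower and 17.5% higher in the plain IDs. In the S IDs 0 genes of these 5 lists were called by edgeR and 0 had an unadjusted p under 0.05, and the erythroid sums were 107692 to 188959 CPM in gluten-free and 100842 to 214350 CPM in control libraries. No gene of these lists was at 0 in all libraries. The haemoglobin chaperone Ahsp was on the erythroid list but was not found by that name among the 54532 genes, so it was not analysed here. Over the 20 libraries the mean log2 level of the cell cycle genes had r = 0.85 with Dnajb1 and with Hspd1, 0.82 with Hsp90aa1 and 0.77 with Hspe1, against 0.32 with Hspa8 and with Hsph1, 0.40 with Hsp90ab1, -0.25 with Hspa1a and -0.63 with Hsf1. For deviations from the group means these values were 0.77, 0.57, 0.67 and 0.57, against 0.12, 0.15, 0.20, -0.04 and -0.60. In whole spleen RNA fewer cells of a type and less RNA of a gene per cell cannot be told apart, and the part of these cell types in the chaperone differences was not tested.

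Leaving out control 5 and gluten-free S1 together was an alternative set with earlier results of these data known. In the plain IDs it gave the same values as leaving out control 5 alone, since gluten-free S1 is not among them, so it is no further check. The 4 members were lower there, and Hspa8 (edgeR adjusted p = 0.0205) and Hsph1 (adjusted p = 0.0434) were called as well. In the S IDs, where only gluten-free S1 was removed, 0 members were called. Among all tested genes 4134 were then called lower and 3160 higher in the plain IDs. Control 4 carried acinar genes and was the lowest plain control for Hsph1. Gluten-free S1 carried more of them and was the highest gluten-free S library for Hsph1 (152 CPM) and Hspa8 (1069 CPM). Over the 20 libraries the mean log2 level of 10 acinar genes had r = -0.05 with Hsph1 and -0.01 with Hspa8. For deviations from the group means these were -0.14 and -0.08. Whether acinar carry-over goes with the level of these genes was not tested beyond this description. The 4 calls held without control 4, and Hspa8 and Hsph1 passed the threshold without it, with the adjusted p-values given above.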

How the data were processed

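RNA was extracted from whole spleens, and libraries were sequenced on an Illumina instrument, per the labels' protocols. The values are raw counts per gene as the authors deposited them, all of them whole numbers and none scaled. Per the submitters' processing notes, CASAVA, HISAT2 2.0.5 and featureCounts 1.5.0 were used with GRCm38 (mm10); neither the strand setting nor how multi-mapping reads were handled is given in the sources used here. Table columns were matched to libraries by diet and ID.

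Counts were filtered (edgeR filterByExpr over the diet by ID form groups; 18362 of 54532 genes, 33089 with a count) and scaled with TMM over the 20 libraries. Differences were tested with edgeR 4.0.16 in R 4.3.3 (quasi-likelihood test, two-sided, Benjamini-Hochberg over all tested genes, threshold 0.05) in 5 comparisons: diet in the plain IDs, in the S IDs and over both forms with the form as a term, the diet by form interaction, and S against plain IDs. All fold changes are gluten-free over control, or S over plain. The SE was taken from the fold change and its F statistic (absolute value divided by the root of F). CPM are TMM-scaled, and correlations used log2 CPM with a prior count of 2. Ratios were tested by exact permutation (scipy 1.17.1). The fits were tested on simulated data with known changes.

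Named genes were the 10 members, up to 3 genes of each list (smallest p in the plain IDs) and the genes most like a member; Dnaja1 in the cytosolic list is named outside that rule, after its values were seen. The members, lists and libraries left out together were chosen with earlier results of these data known. Alternatives were RLE scaling, library totals, other filters, DESeq2 1.42.0, limma-voom (limma 3.58.1) with and without quality weights, a fit over the 4 groups, no form term, a replicate block over the 4 IDs in both diets, and leaving out libraries. Deviations of same-numbered libraries correlated at -0.17 (ID 7), -0.20 (8), 0.09 (S1) and 0.38 (S6). Differently numbered pairs within a form ran from -0.37 to 0.35, so the S6 pair was above them all. Since the 4 IDs had no common sign, the block was kept as an alternative.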

Additional observations from a re-analysis of the deposited data

Results flagged for a closer look

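The diet fold change of 4 members differed between the ID forms in edgeR's interaction test (quasi-likelihood, Benjamini-Hochberg over all tested genes). On the log2 scale the fold change in the S IDs minus that in the plain IDs was 1.18 for Dnajb1 (adjusted p = 0.00527), 1.07 for Hsp90aa1 (adjusted p = 0.0206), 1.05 for Hspd1 (adjusted p = 0.00407) and 0.83 for Hspe1 (adjusted p = 0.00802). In the plain IDs gluten-free libraries were lower in each of these genes, and in the S IDs the log2 fold changes were between 0.06 and 0.27. Erythroid and cell cycle genes differed in the same direction, with 15 of 20 and 20 of 20 genes past the threshold, and 15.4% of all genes did. Diet is compared within each form, but the forms can differ in ways the labels do not give, and what the form stands for cannot be told apart from other differences between these libraries. Among 30 groups of 4 to 8 libraries, 0 members had a library that stood apart by Dixon's test. The control S group, with 3 libraries, was left out of this test, so control S6 was not judged by it.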

How the results depend on the processing

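The calls of Dnajb1, Hsp90aa1, Hspd1 and Hspe1 in the plain IDs held under 21 of 22 alternatives each. Among these, leaving out control 5 with gluten-free S1 repeats the fit without control 5 alone. With the replicate block, 0 members and 0 genes were called in the plain IDs (Dnajb1 log2 fold change -1.09, edgeR adjusted p = 0.434), 90 genes in the S IDs and 0 over both forms. That fit leaves 1 residual degree of freedom in each form, so the lost calls say nothing of a weaker effect. Deviations of same-numbered libraries correlated at -0.17 (ID 7), -0.20 (8), 0.09 (S1) and 0.38 (S6). Limma-voom with quality weights called 7 members and 10147 genes in the plain IDs (7266 genes in the main fit) and 662 genes in the S IDs. It called 6 members and 9575 genes over both forms, 8163 genes in the interaction, and 5 members and 6580 genes between the forms. DESeq2 called 4 genes in the S IDs, 1 member and 1594 genes over both forms and 2820 genes between the forms. Over both forms 1 gene was called without a filter, by limma-voom and without the form term. With library totals, the interaction had 1294 genes higher and 2650 lower (2825 and 1720 with TMM), its median moving to -0.30, and the form comparison 374 higher and 1487 lower (951 and 705), its median moving to -0.18.

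Leaving out 1 library gave 4 to 6 members and 5958 to 8735 genes in the plain IDs, and 3 to 4 members and 3273 to 5418 genes in the interaction. Over both forms it gave 0 to 1 members and 0 to 3718 genes (3718 without control S6, 2923 without gluten-free S8, 1 without gluten-free S1). Between the forms it gave 0 to 2 members and 580 to 4396 genes (4396 without control S6). The Hspa1a plus Hspa1b ratio to Hspa8 in the plain IDs differed by 0.42 to 0.72. Of 1260 alternatives for single members 1160 kept direction and side of the threshold and 52 changed sign, 0 of them for a called value; the cause was not tested. The sign changes were these log2 fold changes. In the plain IDs, library totals gave Hspa1a 0.0048, Hspa1b 0.013 and Hsp90ab1 0.065 (all genes 0.31), limma-voom gave Hspa1a 0.13 and Hspa1b 0.016, quality weights Hspa1a 0.0097, and single libraries Hspa1a -0.43 to 0.15. In the S IDs, Hspa8 had -0.036 with library totals, -0.056 without control 5 and gluten-free S1 and -0.16 to 0.43 without single libraries, and Hspa1a 0.078 with quality weights; the replicate block gave Hspa8 -0.10, Hsph1 -0.11, Dnajb1 -0.17, Hspd1 -0.067 and Hspe1 -0.024. Single libraries gave there Hsph1 -0.026 to 0.62, Hsf1 -0.043 to 0.31, Hspa1a -1.55 to 0.73, Hspa1b -0.69 to 0.33, Hsp90ab1 -0.25 to 0.048 and Dnajb1 -0.089 to 0.18. In the interaction, Hsp90ab1 had -0.24 with library totals and -0.027 to 0.27 without single libraries; quality weights gave Hspa1a 0.12, Hspa1b 0.087 and Hsf1 0.17, and single libraries Hspa1a -1.29 to 0.99, Hspa1b -0.42 to 0.60 and Hsf1 -0.19 to 0.16. Between the forms, library totals gave Dnajb1 -0.067, Hsp90ab1 -0.062 and Hspe1 -0.063, quality weights Hspa8 0.15 and Hsph1 0.30, and single libraries Hspa8 -0.18 to 0.049 and Hsph1 -0.14 to 0.11. Depth limits Hspa1a most, with as few as 3 counts in a library, and then Hspa1b, with as few as 17.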

Other observations

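A processed pseudogene named after a member, Hspd1-ps3 (ENSMUSG00000058809, chr11:41498737-41500458, plus strand), had its own counts. It had 3.93, 2.87, 8.09 and 3.30 CPM in gluten-free 7, 8, 9 and 10. Among the plain controls, libraries 1, 3, 6 and 7 had 21.5, 28.7, 31.9 and 32.5 CPM, and libraries 2, 4, 5 and 8 had 5.13, 4.08, 6.61 and 7.09 CPM. The other 16 libraries, S IDs included, lay at or below 13.1 CPM. Set against Hspd1 in the same library this was 5.65% to 8.52% in those 4 control libraries and 1.38% to 4.47% elsewhere. Hspd1 itself was at 380 to 388 CPM in these 4 libraries and at 373 CPM in control 2, which had little of the pseudogene. The log2 fold change in the plain IDs was -1.90 ± 0.57 (SE; edgeR adjusted p = 0.0152). How reads that match both the gene and its copies were counted is not given. All 5 rows named as Hspd1 pseudogenes held 3.58% of the counts of Hspd1, and 6 rows named for Hspe1 held 0.195% of its counts.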
